A study of Mus musculus with 3 samples.

Results

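The potassium channel genes of visceral adipose fibroblasts are described here under vehicle, oncostatin M (Osm) and transforming growth factor beta 1 (TGF-beta1). The members are the protein-coding genes whose symbol is Kcn followed by letters and a number, 92 of the 56748 genes listed and of the 21970 listed as protein-coding. The rule uses the name alone and no measured value. It takes in the pore-forming subunits and also the auxiliary subunits that carry a Kcn symbol. The donors were wild-type mice fed a high-fat diet. Fibroblasts came from the stromal vascular fraction of their visceral fat, after CD45, CD31 and Ter119 positive cells had been depleted magnetically. The sources used here do not give the strain, sex or age of the mice, or how many animals stand behind a library. The 3 groups were vehicle, for which no time is given, recombinant mouse Osm at 3 ng/mL for 24 h and recombinant human TGF-beta1 at 3 ng/mL for 24 h. Each group is 1 RNA sequencing library, so the spread between cultures is unknown and no test between conditions was possible. Intervals are exact, at 95%, and reflect counting error alone.

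Potassium channels let potassium leave the cell down its gradient, and the current they carry sets the resting membrane potential, cell volume and the driving force for calcium entry. Voltage-gated channels open on depolarization, inward rectifiers and tandem-pore leak channels hold the resting potential, and another class opens on calcium or sodium inside the cell. Auxiliary subunits form no pore and change the gating or the surface level of a pore. Fibroblasts do not fire action potentials, and in them these channels are known mainly for a part in volume, proliferation and calcium signals.

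Depth was 18336068 reads for vehicle, 17319872 for Osm and 18533741 for TGF-beta1, of which the members took 0.0196%, 0.0172% and 0.0171%. Levels are given as CPM, TMM-scaled counts, and between genes as the authors' FPKM, which also divides by gene length. A floor of 3 counts stood at 0.163, 0.173 and 0.163 CPM in the 3 libraries. The interval of a count of 0 reached 0.2, 0.213 and 0.2 CPM. Fibroblast markers were abundant, with a summed level of 19494, 19951 and 22104 CPM for 10 of 10 markers. Leukocyte markers summed to 19.1, 15.9 and 15.1 CPM over 10 genes with Cd3e and Itgam at 0, endothelial markers to 51.8, 42.0 and 37.1 CPM over 8 genes with Tie1 and Cldn5 at 0, and mature adipocyte markers to 22.3, 22.2 and 13.0 CPM over 8 genes with Plin1, Lep and Pck1 at 0. Mesothelial markers summed to 43.2, 41.9 and 51.7 CPM over 8 genes, none at 0 throughout. Mural markers, which matter here because mural cells carry an ATP-sensitive potassium channel, summed to 1492, 1458 and 1454 CPM over 11 genes, of which Pdgfrb, also a fibroblast gene, took 1405, 1380 and 1319 CPM, and Higd1b was at 0. Schwann and neuronal markers summed to 124, 131 and 198 CPM over 10 genes, of which the tubulin gene Tubb3 took 111, 119.6 and 185 CPM, while Sox10, Snap25 and Elavl4 were at 0. By the 2-fold rule given below, the TGF-beta1 library was lower than vehicle in Dcn and Ly6a (fibroblast), Vtn and Ndufa4l2 (mural), Cdh5 (endothelial) and Cd68 (leukocyte), while Cspg4 (mural), Krt19 and Upk1b (mesothelial) were higher. The part of other cells in the results below was not tested, and in bulk RNA fewer cells of a type cannot be told apart from less RNA per cell.

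Most potassium channel genes had few reads or none in these fibroblasts. Of the 92 members, 37 had no read in any library and 55 had at least 1, and 19 (20.7%) reached 1 CPM in at least 1 library, against 12049 of 21970 protein-coding genes (54.8%). The 19 comprised 7 of 40 voltage-gated pore genes, 2 of 15 inward rectifiers, 3 of 14 tandem-pore leak channels, 3 of 8 calcium- or sodium-activated channels and 4 of 15 auxiliary subunits. In all 3 libraries 14 of the 19 were at 1 CPM or more, and 7 members reached 10 CPM in at least 1. Kcnj15 was at 1 CPM only in the TGF-beta1 library and so entered through the library where it was high, for which reason the counts over the 19 are a description and support nothing by themselves. The 18 voltage-gated genes without a read included Kcnq1, Kcna4, Kcna5 and Kcnd2, and the inward rectifiers without one included Kcnj11.

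Per length, the auxiliary subunit gene Kcne4 stood first in every library. Its product crosses the membrane once and alters the current of voltage-gated channels. Kcne4 was at 21.8 FPKM with vehicle, 15.7 FPKM with Osm and 10.2 FPKM with TGF-beta1, while the median of the tested protein-coding genes was 5.83, 5.84 and 5.89 FPKM. Kcnd1, a pore gene of the transient A-type current, came second at 6.66, 7.56 and 6.19 FPKM, close to that median. The counting intervals separated Kcne4 from Kcnd1, and Kcnd1 from the gene below it, in each library. With vehicle Kcnip3 at 3.33 FPKM and Kcnt2 at 3.27 FPKM followed, which their intervals did not separate, then the leak channel genes Kcnk6 at 2.72 FPKM and Kcnk2 at 1.47 FPKM. The lowest 12 lay between 0.0258 FPKM for Kcnj15 and 1.26 FPKM for Kcnj4, mostly not apart from their neighbours. With TGF-beta1 Kcnk2 stood in the third place at 4.26 FPKM, not apart from Kcnt2 at 4.23 FPKM, and Kcnd3 was last at 0.0907 FPKM.

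**Figure D1:**
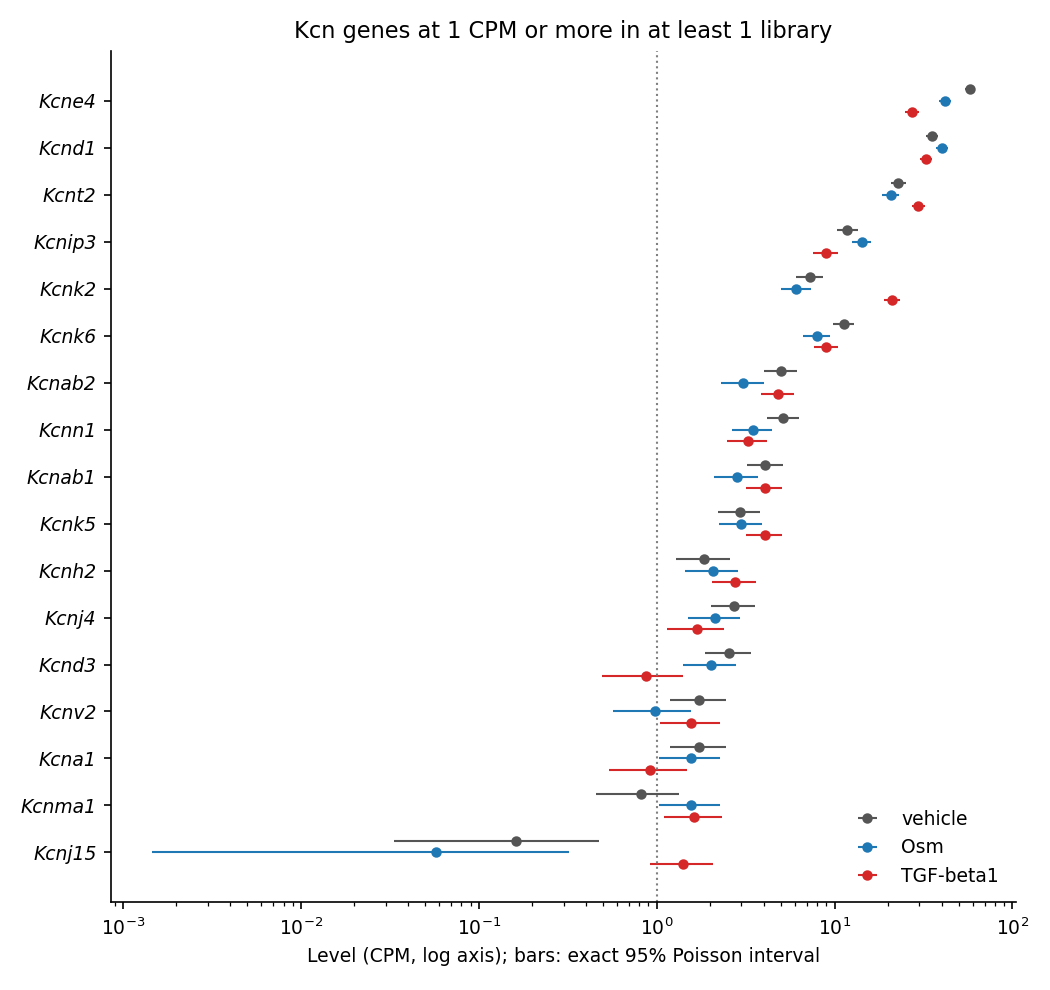
Level of the described Kcn genes that reached 1 CPM in a library, on a log axis in CPM, with vehicle in grey, Osm in blue and TGF-beta1 in red. Points are single libraries and bars exact 95% Poisson intervals of the count. Kcnk2 stands to the right with TGF-beta1 (21.0 CPM against 7.28 with vehicle) and Kcne4 to the left (27.2 against 57.8).

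TGF-beta1 against vehicle asks what the classical inducer of matrix production did to these genes. In the TGF-beta1 library 2 of the 19 members were at least 2-fold higher, Kcnk2 and Kcnj15, and 2 at least 2-fold lower, Kcne4 and Kcnd3. To count, a gene needed a log2 ratio (prior count 0.5) of 1 or beyond in either direction and a count-ratio interval that left out 1. The background over the 13712 genes tested was 2.27% higher and 4.79% lower by the same rule, and the members' shares were 10.5% each way. Each share is 2 genes, and 1 of the 2 higher ones entered only through the TGF-beta1 library. Of the 2 lower ones, Kcnd3 was under 1 CPM with TGF-beta1 (0.868 CPM) and entered only through vehicle and Osm, where it was higher. On balance the members lay slightly below vehicle, with 13 of 19 ratios below 0 (48.7% of all genes tested) and a median log2 ratio of -0.14, against 0.01 over all genes tested. The interval lay above 1 for 4 members, Kcnt2, Kcnk2, Kcnma1 and Kcnj15 (background 27.8%), and below 1 for 8, among them Kcne4, Kcnd3, Kcnip3 and Kcnn1 (background 24.2%). At a 1.5-fold limit 5 were lower, Kcnn1, Kcnj4 and Kcna1 beside Kcne4 and Kcnd3 (background 9.53%), and 3 were higher, with Kcnma1 beside Kcnk2 and Kcnj15 (background 6%). The median rested on few genes: on the 8 members at 5 CPM or more in a library it was -0.37.

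The 250 bases before the start of each of these 4 genes are shown because they are the members past the 2-fold rule, so that the sequence next to the start can be read beside the change. They are from RefSeq, build GRCm38.p6, which is not the build of the count table, and run 5′ to 3′ on the gene's strand up to the base before the most upstream start listed. Kcnk2 has 4 starts in the table and the other three 1 each. Capitals mark CAGAC, the Smad-binding element, or its reverse complement GTCTG.
Kcnk2 (chr1:189402274-189402523, minus strand): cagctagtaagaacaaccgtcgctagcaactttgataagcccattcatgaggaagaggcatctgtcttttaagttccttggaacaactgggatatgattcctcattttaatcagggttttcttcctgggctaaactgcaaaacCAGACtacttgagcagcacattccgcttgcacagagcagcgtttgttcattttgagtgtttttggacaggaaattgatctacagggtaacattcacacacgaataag
Kcnj15 (chr16:95257308-95257557, plus strand): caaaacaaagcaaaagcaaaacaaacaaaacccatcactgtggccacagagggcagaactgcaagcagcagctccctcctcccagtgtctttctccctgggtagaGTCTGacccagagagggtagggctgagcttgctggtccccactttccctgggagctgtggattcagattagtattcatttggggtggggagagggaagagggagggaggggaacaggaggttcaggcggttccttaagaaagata
Kcne4 (chr1:78816661-78816910, plus strand): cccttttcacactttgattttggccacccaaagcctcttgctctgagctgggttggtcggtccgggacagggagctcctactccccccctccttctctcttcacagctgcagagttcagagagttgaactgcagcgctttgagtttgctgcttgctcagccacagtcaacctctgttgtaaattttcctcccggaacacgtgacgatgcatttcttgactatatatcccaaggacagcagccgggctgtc
Kcnd3 (chr3:105451640-105451889, plus strand): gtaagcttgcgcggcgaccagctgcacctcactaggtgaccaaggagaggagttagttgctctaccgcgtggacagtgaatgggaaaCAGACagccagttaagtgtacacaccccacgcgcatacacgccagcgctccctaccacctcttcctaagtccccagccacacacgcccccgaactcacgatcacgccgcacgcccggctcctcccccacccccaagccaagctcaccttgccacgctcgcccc
The element begins at base -107 from the start of Kcnk2, -145 of Kcnj15 and -163 of Kcnd3, and these letters are not in the window of Kcne4. So it is present before both genes that were higher and before 1 of the 2 that were lower. It is common, in 42.2% of 32817 promoter windows of the same length, and 6 of the 13 expressed members with an entry hold it. The motif TTCNNNGAA of Stat factors (7.01% of windows) and TGANTCA of AP-1 (6.75%), also read on both strands, do not occur in these 4 windows. Among the 13 members Kcnip3 and Kcnab1 hold TTCNNNGAA and Kcnip3 holds TGANTCA.

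Among the tandem-pore leak channels, Kcnk2 encodes a channel that opens on membrane stretch and polyunsaturated lipids (chromosome 1, 188940127 to 189134470, build mm39, minus strand). Kcnk2 had 134 reads with vehicle, 106 with Osm and 387 with TGF-beta1, or 7.28, 6.11 and 21.0 CPM. The TGF-beta1 library stood alone above the other two, whose counts did not differ beyond counting error. Kcnk2 was 2.88-fold higher with TGF-beta1 than with vehicle (2.36 to 3.54). The processed pseudogene Pdcd5-ps lies within Kcnk2 on the same strand and stood at 10.8, 8.47 and 10.6 CPM, with no rise in the TGF-beta1 library, and A430027H14Rik on the opposite strand had 1, 0 and 8 reads. Of the 50-base windows of Kcnk2 transcripts 4.39% occur in a transcript of another gene, A430027H14Rik. The other leak channel genes did not pass the rule. Kcnk6 was at 11.3, 7.95 and 8.95 CPM with vehicle, Osm and TGF-beta1 (1.26-fold lower with TGF-beta1, 1.02 to 1.56), and Kcnk5, an alkali-activated leak channel, at 2.93, 3.00 and 4.07 CPM (1.39-fold higher, 0.964 to 2.01). The summed level of the 14 leak channel genes was 21.7, 17.3 and 34.2 CPM in the same order. Without Kcnk2 it was 14.4, 11.2 and 13.2 CPM, so Kcnk2 alone turned the sum upward.

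Among the auxiliary subunits, Kcne4 (chromosome 1, 78794475 to 78797745, plus strand) had 1063 reads with vehicle, 725 with Osm and 501 with TGF-beta1, or 57.8, 41.8 and 27.2 CPM. The intervals of the 3 libraries did not overlap, and vehicle was the highest. Kcne4 was 2.13-fold lower with TGF-beta1 (1.91 to 2.37), so the interval reaches below 2-fold. No gene that overlaps Kcne4 had a read, and none of its windows were shared. Kcnip3, a calcium-binding protein that joins the A-type channels, was at 11.8, 14.2 and 8.90 CPM and 1.33-fold lower (1.08 to 1.63), short of the rule. The cytoplasmic beta subunit genes Kcnab1 and Kcnab2 were at 4.08 and 5.0 CPM with vehicle and at 4.07 and 4.83 CPM with TGF-beta1. The summed level of the 15 auxiliary genes was 79.8, 62.5 and 45.9 CPM. Kcne4 held most of that difference, and without it the sums were 22.0, 20.7 and 18.7 CPM.

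Among the voltage-gated pore genes, Kcnd3, which like Kcnd1 encodes an A-type pore (chromosome 3, 105359646 to 105581318, plus strand), had 47 reads with vehicle, 35 with Osm and 16 with TGF-beta1, or 2.55, 2.02 and 0.868 CPM. The TGF-beta1 library was the lowest, and the interval of its level (0.496 to 1.41) touched that of Osm but not that of vehicle (1.88 to 3.40). Kcnd3 was 2.94-fold lower with TGF-beta1 (1.64 to 5.56). Kcnd3os on the opposite strand had 2, 0 and 0 reads. The far more abundant Kcnd1 was at 35.2, 40.1 and 32.7 CPM in the same order, and its ratio to vehicle lay within counting error (1.08-fold lower, 0.964 to 1.21). Kcna1, a delayed rectifier pore, went from 32 reads to 17 (1.89-fold lower, 1.02 to 3.62), short of the rule. Kcnh2, the pore of the rapid delayed rectifier current of the heart, had 34 reads with vehicle and 51 with TGF-beta1 (1.5-fold higher, 0.952 to 2.38). The silent subunit gene Kcnv2 had 32 and 29 reads. The 40 voltage-gated genes together stood at 61.3, 62.5 and 51.9 CPM, and without Kcnd1 at 26.1, 22.4 and 19.3 CPM.

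The 15 inward rectifier genes had the lowest summed level per length of the 5 families, 1.36, 1.14 and 1.20 FPKM (3.15, 2.59 and 3.69 CPM). Kcnj15 (chromosome 16, 95058417 to 95101119, plus strand) had 3 reads with vehicle, 1 with Osm and 26 with TGF-beta1, or 0.163, 0.0576 and 1.41 CPM. Nearly all of its reads were in the TGF-beta1 library. The ratio to vehicle was 8.65-fold (2.65 to 44.7), a wide interval because vehicle had 3 reads. Of the Kcnj15 windows 7.07% were shared with other genes, the highest share among the 19. Kcnj4, a strong inward rectifier, had 50, 37 and 31 reads and was 1.62-fold lower with TGF-beta1 (1.01 to 2.62).

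Among the calcium- or sodium-activated channels, no gene at 1 CPM or more passed the 2-fold rule. Kcnt2, a sodium-activated channel and the most abundant of them (chromosome 1, 140173896 to 140539805), had 420 reads with vehicle, 359 with Osm and 544 with TGF-beta1, or 22.8, 20.7 and 29.5 CPM. It was highest with TGF-beta1, 1.29-fold over vehicle (1.14 to 1.47). The small-conductance channel gene Kcnn1 had 95, 60 and 60 reads and was 1.59-fold lower with TGF-beta1 (1.14 to 2.23). Kcnma1, the pore of the large-conductance calcium-activated channel, had 15, 27 and 30 reads and a ratio to vehicle of 2.00 (1.04 to 3.99), with a log2 ratio of 0.97 after the prior count. Kcnma1 thus lay just under the rule. Its low count is spread over the longest gene model of the 19, which put it at 0.0480, 0.0913 and 0.0961 FPKM.

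**Figure D2:**
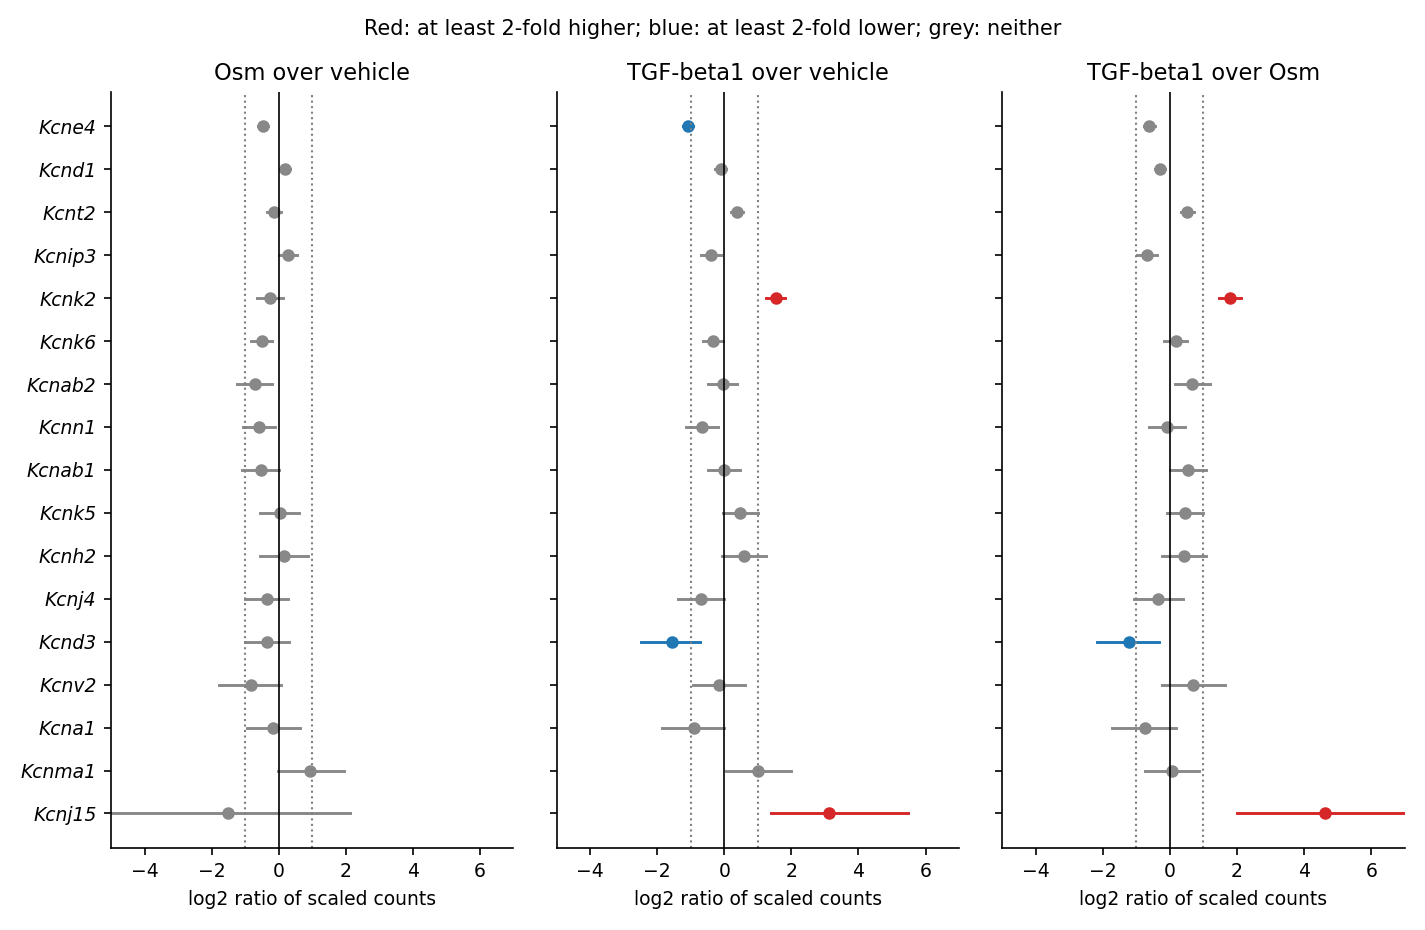
Log2 ratio of scaled counts for the same Kcn genes in each comparison, with exact 95% intervals of the count ratio (counting error only) and dotted lines at 2-fold. Osm over vehicle has no coloured gene, TGF-beta1 over vehicle has Kcnk2 and Kcnj15 in red and Kcne4 and Kcnd3 in blue, and bars of Kcnj15 that reach a panel's edge continue beyond it.

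Osm against vehicle asks what a cytokine of the interleukin 6 family did to the same genes. No member at 1 CPM or more was at least 2-fold higher or lower with Osm (background 0.948% higher and 0.649% lower). Nonetheless 14 of 19 ratios were below 0, against 49.4% of all genes tested. The median log2 ratio was -0.35, against 0.00 over all genes tested. Most members had few reads and an interval that held 1. Without regard to direction, the median size of the log2 ratio was 0.35 for the members and 0.11 over all genes tested. The signs are therefore a description only. The interval excluded 1 downward for 5 members, among them Kcne4, Kcnk6 and Kcnab2 (background 10.6%), and upward for Kcnd1 and Kcnip3 (background 10.9%). At a 1.5-fold limit Kcnab2 alone was lower (background 1.66%). Kcne4 was 1.38-fold lower with Osm (1.26 to 1.52), Kcnk6 1.42-fold lower (1.14 to 1.78), Kcnn1 1.49-fold lower (1.07 to 2.10) and Kcnab2 1.64-fold lower (1.16 to 2.34). Kcnd1 was 1.14-fold higher (1.02 to 1.27) and its partner Kcnip3 1.21-fold higher (1.00 to 1.46). Kcnk2 was 1.19-fold lower (0.917 to 1.55) and Kcnt2 1.10-fold lower (0.956 to 1.27), both within counting error. Kcnv2 had 17 reads with Osm against 32 with vehicle, and Kcnma1 27 against 15, each with an interval that held 1. Nphp4, which overlaps Kcnab2 on the opposite strand, was at 2.23, 3.11 and 2.93 CPM, and Kcnab2 at 5.0, 3.05 and 4.83 CPM. Both ligand comparisons share the vehicle library, so their directions are not independent of each other.

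**Figure D3:**
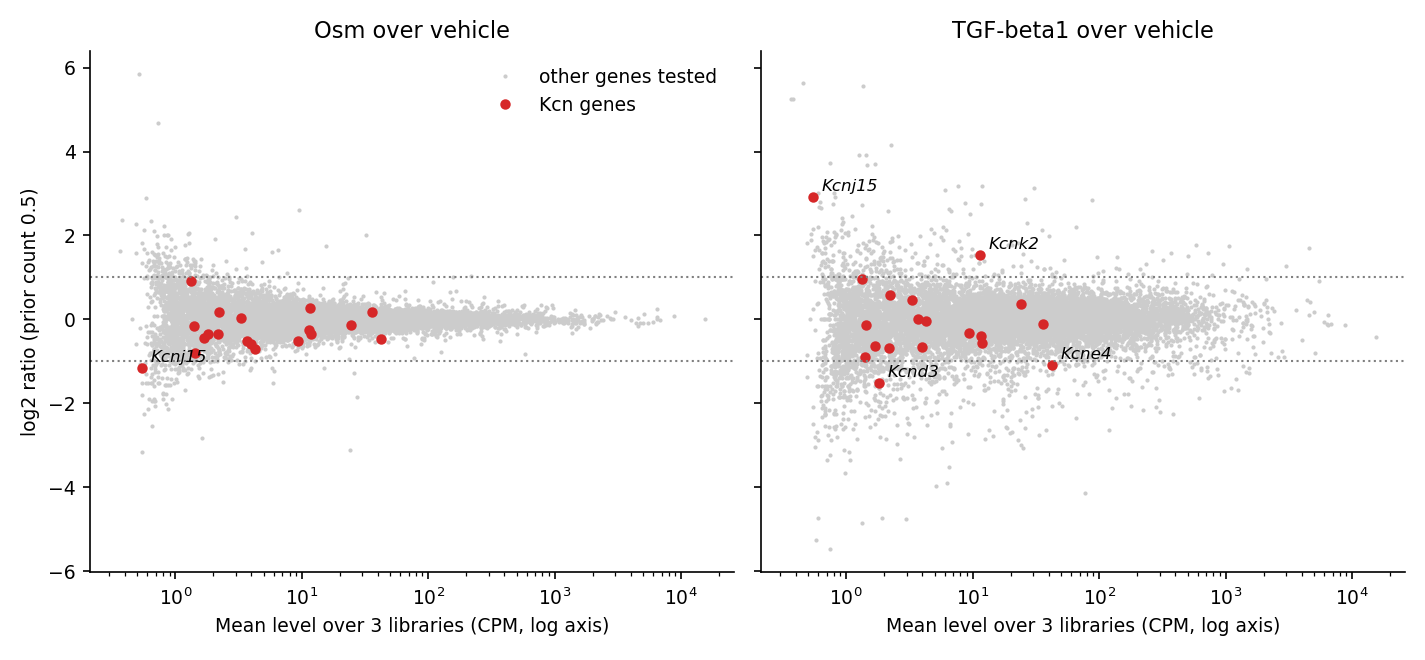
Log2 ratio against the mean level over the 3 libraries in CPM (log axis) for all genes tested (grey) and the Kcn genes (red), with members at least 1 in size on the log2 axis named and dotted lines at 2-fold. Grey points widen toward low levels, where most members lie, and Kcnj15 in the Osm panel rests on 1 read against 3.

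TGF-beta1 against Osm compares the ligands directly. Kcnk2 was 3.44-fold higher with TGF-beta1 than with Osm (2.77 to 4.30) and Kcnj15 24.5-fold higher, with 26 reads against 1 (4.02 to 1004), while Kcnd3 was 2.32-fold lower (1.25 to 4.50). These were 2 and 1 of 19 members, against a background of 2.42% higher and 5.08% lower. Kcne4 was 1.54-fold lower with TGF-beta1 than with Osm (1.37 to 1.73) and Kcnip3 1.60-fold lower (1.31 to 1.96), both short of the rule. Kcnt2 was 1.43-fold higher (1.25 to 1.63), Kcnab2 1.58-fold higher (1.11 to 2.27) and Kcnd1 1.23-fold lower (1.10 to 1.37). The interval lay above 1 for 4 members, Kcnt2, Kcnk2, Kcnab2 and Kcnj15 (background 26.6%), and below 1 for 4, Kcne4, Kcnd1, Kcnip3 and Kcnd3 (background 24.6%). At a 1.5-fold limit Kcnab2 joined the 2 higher members (background 6.16%), and Kcne4 and Kcnip3 joined Kcnd3 below (background 9.93%). The median log2 ratio of the 19 was 0.06, and 0.01 over all genes tested, with 9 of 19 below 0 against 48.6% of all genes tested.

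The summed level of all 92 members was 195, 172 and 172 CPM with vehicle, Osm and TGF-beta1, 1.14-fold lower with either ligand (1.08 to 1.19 for each). One gene decided this: without Kcne4 the sums were 138, 130.2 and 145 CPM, 1.06-fold lower with Osm (0.999 to 1.12) and 1.05-fold higher with TGF-beta1 (0.996 to 1.11). By family the sums moved apart with TGF-beta1. The leak channels were 1.58-fold higher (1.39 to 1.79) and the calcium- or sodium-activated channels 1.23-fold higher (1.10 to 1.38), while the auxiliary subunits were 1.74-fold lower (1.60 to 1.89) and the voltage-gated pores 1.18-fold lower (1.08 to 1.29). Without Kcnt2 the calcium- or sodium-activated sums were 6.68, 6.34 and 6.78 CPM. The inward rectifiers lay within counting error (1.17-fold higher, 0.812 to 1.69).

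**Figure D4:**
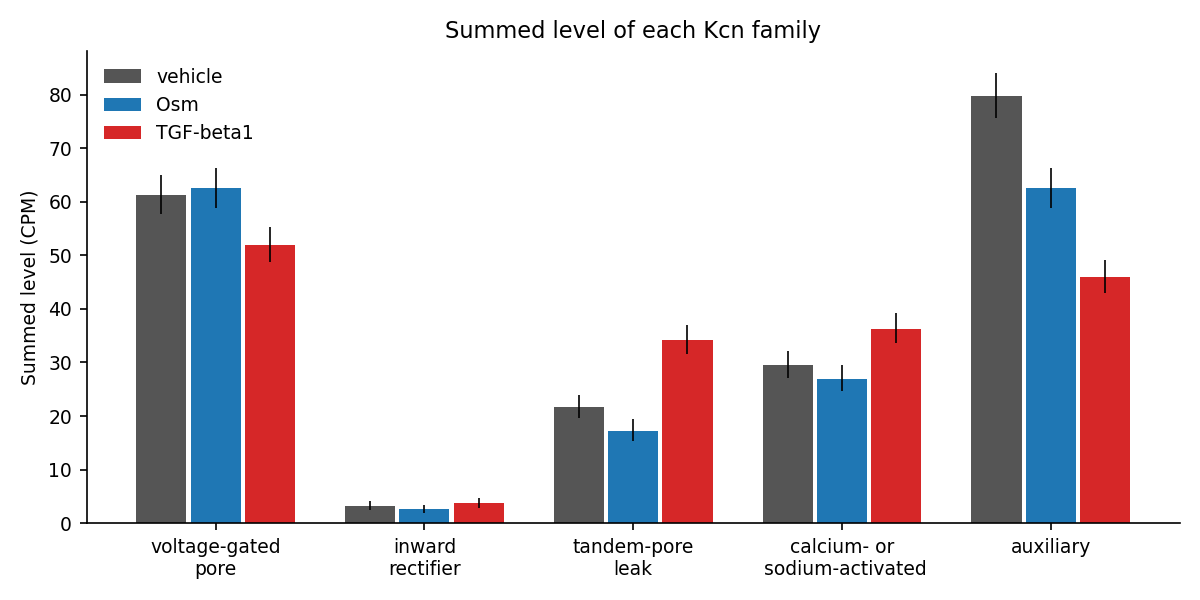
Summed level of each Kcn family in CPM, as bars from 0 with exact 95% Poisson intervals of the summed count, for vehicle (grey), Osm (blue) and TGF-beta1 (red). The auxiliary subunits step down from 79.8 to 62.5 to 45.9 CPM, and the leak channels stand highest with TGF-beta1 at 34.2 CPM.

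Below 1 CPM in every library lay 36 members with at least 1 read, and 6 of these (16.7%) passed the 2-fold rule in at least 1 of the 3 comparisons, against 320 of 3420 protein-coding genes with reads under the same limit (9.36%). With so few genes and reads nothing is read from that difference. Kcnn4, the intermediate-conductance calcium-activated channel studied in fibrosis, had 4 reads with vehicle, 7 with Osm and 14 with TGF-beta1 (3.49-fold higher with TGF-beta1, 1.10 to 14.6). Its small-conductance relative Kcnn3 had 3, 10 and 13 reads (4.33-fold higher, 1.19 to 23.7). Kcnh1, a voltage-gated pore, had 0, 2 and 12 reads, 3.99-fold higher with TGF-beta1 than with vehicle when vehicle is put at the floor of 3 reads (the interval of the ratio begins at 2.77), and 5.65-fold higher than with Osm (1.26 to 52.0). Hhat overlaps Kcnh1 on the opposite strand at 14.7, 15.3 and 17.2 CPM, so the reads given to Kcnh1 are uncertain. With Osm the silent subunit genes Kcns3 (3, 13 and 5 reads in vehicle, Osm and TGF-beta1) and Kcng1 (0, 6 and 1) passed the rule, by 4.59-fold (1.26 to 25.1) and by 2.12-fold against the floor (the interval of the ratio begins at 1.25). Kcna2 had 7, 10 and 2 reads and was 5.31-fold lower with TGF-beta1 than with Osm (1.13 to 49.9). These genes are named as the exceptions below the filter, and a few reads decide each.

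Partners outside the naming rule were looked up to see which of them had reads beside the pore genes. RNA levels do not show which channels form. The ATP-sensitive channel pairs an inward rectifier, Kcnj8 or Kcnj11, with a sulfonylurea receptor, Abcc9 or Abcc8. Abcc9 was at 4.29, 6.05 and 1.74 CPM with vehicle, Osm and TGF-beta1, 2.47-fold lower with TGF-beta1 (1.62 to 3.85), while Kcnj8 had 2, 5 and 6 reads and Kcnj11 and Abcc8 none. The A-type pores had Kcnip3 beside them but hardly any Dpp6 (0, 0 and 1 read) and no Dpp10. For the large-conductance channel, the beta subunit Kcnmb1 had 6, 2 and 2 reads and the gamma subunit gene Lrrc26 none, while Lingo1, reported as another partner of that channel, was at 22.8, 23.9 and 18.7 CPM. Amigo1, a partner of voltage-gated pores, was at 16.1, 18.3 and 11.7 CPM, 1.38-fold lower with TGF-beta1 (1.15 to 1.65), short of the rule. Apart from Abcc9, the genes in these sentences were singled out after their values were seen. For the lists that follow, the shares of all genes tested past the rule are those given above: against vehicle, TGF-beta1 had 2.27% above and 4.79% below, and Osm had 0.948% above and 0.649% below. In lists of 8 to 23 measured genes such shares come to about 1 gene or none, and counts of 0 to 2 are not read as more than that. The list of 19 genes looked up was broader than partners of Kcn channels and held other cation channels too. Of the 19, 8 were at 1 CPM or more. Abcc9 was the only one at least 2-fold lower with TGF-beta1, none was higher, and none passed either way with Osm. Highest in the list by mean FPKM over the 3 libraries were Sumf2, at 11.4, 13.4 and 12.7 FPKM, and Tmem38b, at 10.2, 12.7 and 6.88 FPKM. Neither is a known subunit of a Kcn channel: Sumf2 encodes a sulfatase-modifying factor of the endoplasmic reticulum, and Tmem38b an intracellular cation channel.

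Among potassium pumps and cotransporters the sodium pump subunit gene Atp1b3 was at 89.5, 92.4 and 87.1 FPKM, far above Kcne4 per length, and its ratios to vehicle lay within counting error (1.04-fold higher with Osm, 0.992 to 1.08, and 1.03-fold lower with TGF-beta1, 0.984 to 1.08). Of the 14 measured, 2 were at least 2-fold lower with TGF-beta1 and none higher, and none passed with Osm. The 2 were the pump subunit Atp1b1 (3.27-fold lower, 2.33 to 4.68) and the pump regulator Fxyd1 (2.52-fold lower, 2.11 to 3.01). Nme7 overlaps Atp1b1 on the opposite strand at 13.5, 13.2 and 9.93 CPM, and Atp1b1 itself was at 7.99, 6.68 and 2.44 CPM.

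Among calcium entry and store channels, 23 of 34 were measured and none passed the rule against vehicle with either ligand. The stretch-gated channel gene Piezo1 (475, 514 and 487 CPM) and Pkd2 (420, 429 and 437 CPM) led per length. Piezo2, another stretch-gated channel gene, was 2.66-fold higher with TGF-beta1 than with Osm (2.44 to 2.91), at 60.3, 38.8 and 103 CPM, and was the 1 gene of the list past the rule in that comparison. Of 18 measured sodium and chloride channel genes, Scn7a, a sodium-level-sensing channel, was at least 2-fold lower with TGF-beta1 (127 CPM with vehicle, 50.4 CPM with TGF-beta1, 2.51-fold, 2.33 to 2.72) and none was higher. Ano6, a calcium-activated scramblase and channel, was among the most abundant of that list per length, at 25.8, 26.7 and 22.4 FPKM. None of 18 measured regulators of channel transcription and surface level passed in any comparison. At the 1.5-fold limit few were higher or lower with TGF-beta1 than with vehicle. The background at that limit was 6% higher and 9.53% lower, and nothing is read from those few. The calmodulin genes Calm3 (337, 349 and 355 CPM) and Calm2 (187, 173 and 259 CPM) led the list by mean FPKM over the 3 libraries. Those means were 143 and 141 FPKM, and the order differed within single libraries. The median log2 ratios with Osm and TGF-beta1 were 0.21 and -0.09 for the list that held the partners and 0.05 and 0.01 for pumps and cotransporters. They were 0.02 and 0.04 for calcium channels, 0.03 and -0.07 for sodium and chloride channels and -0.02 and 0.05 for the regulators.

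**Figure D5:**
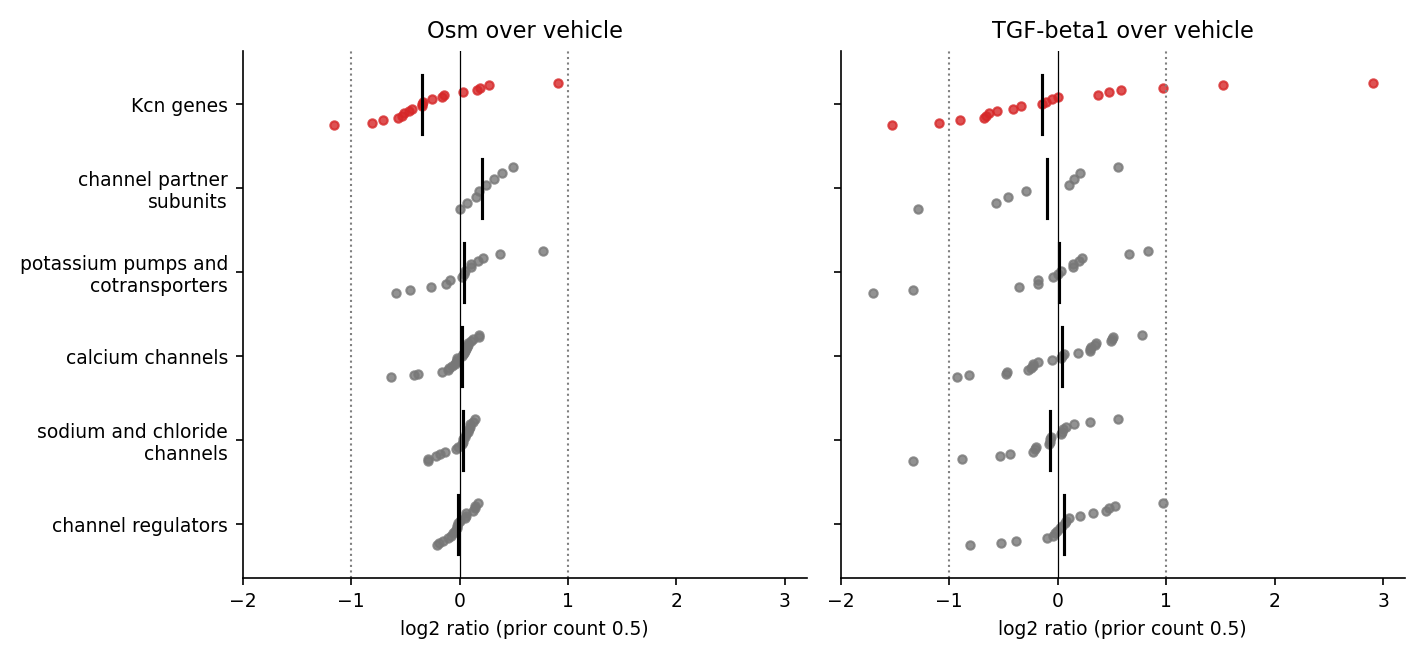
Log2 ratios of the 19 Kcn genes (red) and of the measured members of the 5 other lists (grey), 1 point a gene, with the median as a black bar and dotted lines at 2-fold. With Osm the Kcn median is -0.35 while the medians of the other lists lie between -0.02 and 0.21.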

How the data were processed

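RNA was sequenced from 3 fibroblast cultures, 1 library per condition. The authors deposited raw read counts per Ensembl gene and FPKM values, the latter proportional to count over gene length within a library, per the file headers and values. The submitters' processing notes name CASAVA, HISAT, HISAT2 and TopHat2, without roles, and build mm39. How reads were assigned to genes, with which annotation and whether by strand, was not stated in the sources used here, so reads from overlapping genes on opposite strands cannot be told apart. The libraries held 17319872 to 18533741 counts.

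Counts were scaled by TMM (edgeR 4.0.16, R 4.3.3), and genes at 1 CPM or more in at least 1 library were kept. Log2 ratios used a prior count of 0.5 scaled to library size, while printed folds are ratios of scaled counts without it. A gene was called at 2-fold or more with an exact 95% Clopper-Pearson interval of the count ratio that excludes 1 (scipy 1.17.1). With 1 library per condition there is no replicate error, and intervals and floors (3 counts) cover counting error only. Alternatives were DESeq2 1.42.0 size factors, total counts, other filters, prior count and fold, and the FPKM values. Members and lists were chosen with earlier results of these data known. Members called, or at 10 CPM or more in a library, are described in full, and from each other list the genes called and the 2 with the highest mean FPKM. Window sharing was read from GENCODE M21 transcripts, and promoters from RefSeq (GRCm38.p6), where 13 of the 19 expressed members have an entry. Values of some genes are not reported here, in the text or in the plots that name genes, and these genes stay in the counts, sums and medians.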

Additional observations from a re-analysis of the deposited data

How the results depend on the processing

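No paired analysis was possible because each condition has 1 library, and for the same reason no library could be left out. The counts of members past the rule moved with the filter and the fold. With no filter, on 55 members, Osm over vehicle gave 2 higher (Kcng1, Kcns3), TGF-beta1 over vehicle 5 higher (Kcnh1, Kcnn3 and Kcnn4 beside Kcnj15 and Kcnk2) and TGF-beta1 over Osm 2 lower (Kcna2, Kcnd3). With a filter of 5 CPM, on 8 members, TGF-beta1 over vehicle gave 1 higher (Kcnk2) and 1 lower (Kcne4), and TGF-beta1 over Osm 1 higher (Kcnk2) and 0 lower. A filter on a mean of 1 CPM, chosen after seeing the data, left 18 members and 1 higher (Kcnk2) in both TGF-beta1 comparisons, since it removes Kcnj15. At 1.5-fold there was 1 lower with Osm (Kcnab2), 5 lower with TGF-beta1 against vehicle (Kcna1, Kcnd3, Kcne4, Kcnj4, Kcnn1) and 3 lower against Osm (Kcnd3, Kcne4, Kcnip3). The median of TGF-beta1 over Osm, 0.06, was -0.15 at 5 CPM and -0.01 with the mean filter. Apart from these 2 medians, the other medians kept their direction and the other counts stayed within 1.5 times their value, under the alternatives run. Single genes were recomputed for 9 members, those called or at 10 CPM or more, and all 108 of their values kept direction and side of the rule, while the other genes named were not recomputed one by one. Counts under about 30 reads limit Kcnj15, Kcnma1 and the genes below the filter.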

Other observations

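Other genes with a Kcn name fall outside the naming rule. Kcnq1ot1, the long noncoding RNA antisense to the imprinted channel gene Kcnq1, had 139 reads with vehicle, 126 with Osm and 128 with TGF-beta1, or 7.55, 7.26 and 6.94 CPM, while Kcnq1 had no read in any library. Kcnq1ot1 was 1.09-fold lower with TGF-beta1 (0.849 to 1.39), within counting error. Kcne1l, an auxiliary subunit gene on the X chromosome, had 1, 0 and 8 reads, a ratio of 7.99 to vehicle (1.07 to 354) that rests on 1 read. Kcnrg, a regulator of voltage-gated channels, had 3, 2 and 5 reads.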
